A study of Mus musculus with 59 samples.

Results

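The arrays compare 2 brain regions of vehicle-treated mouse embryos: hippocampus against forebrain at E18.5, shortly before birth. The differences are taken between 6 of the 59 arrays of the series, 3 of hippocampus and 3 of forebrain, chosen by their labels alone. The series measured total RNA of C57BL/6 brain on Affymetrix Mouse Genome 430 2.0 arrays after exposure in the womb to valproic acid (VPA), an anticonvulsant that inhibits histone deacetylases, to its amide valpromide (VPM), or to vehicle. Dams of every group received 1 oral dose a day on E12.5, E13.5 and again on E14.5. The drug groups were given 300 mg/kg of VPA or VPM, and the vehicle groups 0.5% methylcellulose (MC). The groups used below are MC hippocampus and MC forebrain at E18.5, VPA hippocampus and VPA forebrain at E18.5, VPM hippocampus and VPM forebrain at E18.5, and MC hippocampus and MC cortex of adults aged 12 to 13 weeks, with 3 arrays each. MC embryos are therefore controls of orally dosed dams, and no group without dosing was used. The labels call the arrays of a group biological replicates but name no dam, litter, sex or pooling, so p-values measure the spread between these samples. They also name the larger tissue only as forebrain, without saying where it was cut or whether it held the hippocampus.

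The hippocampus arises at the medial edge of the cerebral wall, next to the cortical hem, a signalling strip that releases Wnt and bone morphogenetic proteins and gives rise to many of the reelin-secreting Cajal-Retzius cells. Its pyramidal fields are largely born before birth, whereas the dentate gyrus, whose granule neurons depend on the homeobox factor Prox1 and on Wnt signalling through Lef1, is still being assembled from migrating progenitors at this age. The rest of the forebrain adds the neocortex with its layered projection neurons and the ventral territories of the basal ganglia, whose GABA neurons carry dopamine receptors, retinoic acid receptors and Dlx, Isl1 and Foxp transcription factors.

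Values below are scaled signals, each array being scaled to the same trimmed mean of 500 over its probe sets. Differences are hippocampus minus forebrain on the log2 scale, after values under 32 had been set to 32, given with their standard error (±), and adjusted p-values come from limma with Benjamini-Hochberg adjustment over 11414 genes. The limma fit held all 18 E18.5 arrays, so the spread behind each standard error and p-value also came from the VPA and VPM arrays. On the 6 MC arrays alone 2888 genes were called, against 3513 in the fit used here, and 2751 were called in both. Before scaling, the trimmed means of the 6 arrays lay between 230 and 343, and between 31.9% and 34.0% of probe sets were under the floor of 32. The 3′ to 5′ signal ratio of the Actb control probe sets lay between 1.13 and 1.23. The hippocampus arrays correlated at 0.985 to 0.987 with each other and the forebrain arrays at 0.990 to 0.992, against 0.959 to 0.978 between the regions, and the first principal component, which separated the regions, held 64.1% of the variance. Sex was not balanced: by Xist and Y-linked transcripts all 3 MC hippocampus arrays were male, whereas MC forebrain replicates 1 and 3 were female and replicate 2 male, and the part of sex in the results was not tested beyond the alternatives named below. Choroid plexus signal also varied by array. Ttr, the thyroid hormone carrier made in choroid plexus, had a signal of 8604, 1287 and 26646 on the hippocampus arrays, against 17011, 22402 and 23856 on the forebrain arrays.

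Of 11414 genes tested, 3513 (30.8%) differed between MC hippocampus and MC forebrain at an adjusted p under 0.05. Of these, 1752 (15.3% of genes tested) were higher in hippocampus and 1761 (15.4%) were lower, and the median difference of all genes was 0.01. Changes of at least 2-fold were fewer, 119 higher (1.04%) and 176 lower (1.54%), and the forebrain-enriched genes reached further: the largest fitted fall was 5.34 on the log2 scale, for Isl1, whose hippocampus arrays lay under or next to the floor of 32 so that the size depends on it, and the largest rise was 2.26, for Col1a1, which lost its call without any of 5 of the 6 arrays and is followed by Tac2 at 2.13. The 3 arrays of one region did not overlap the 3 of the other for 5049 genes (44.2%), 2610 of them higher (22.9%) and 2439 lower (21.4%). The filter on low signal asked for 100 in at least 3 of the 6 arrays, and 136 genes passed it through 1 region alone and so had to differ in some measure. On the values as deposited, without scaling, 730 genes were called, 127 higher and 603 lower, with the median of all genes at -0.20. Among the 4 male arrays alone, where forebrain was a single array assumed to vary like the other groups, 494 were called, 230 higher and 264 lower, of which 489 were calls of the full comparison. The filter on the male arrays still asked for 100 in 3 arrays, so genes under 100 on all 3 hippocampus arrays were left out there. Because both are bulk tissues, fewer cells of a type and less RNA per cell cannot be told apart anywhere below. The gene lists below were chosen with earlier results of these data known, so their shares beside those of all genes are descriptive.

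**Figure D1:**
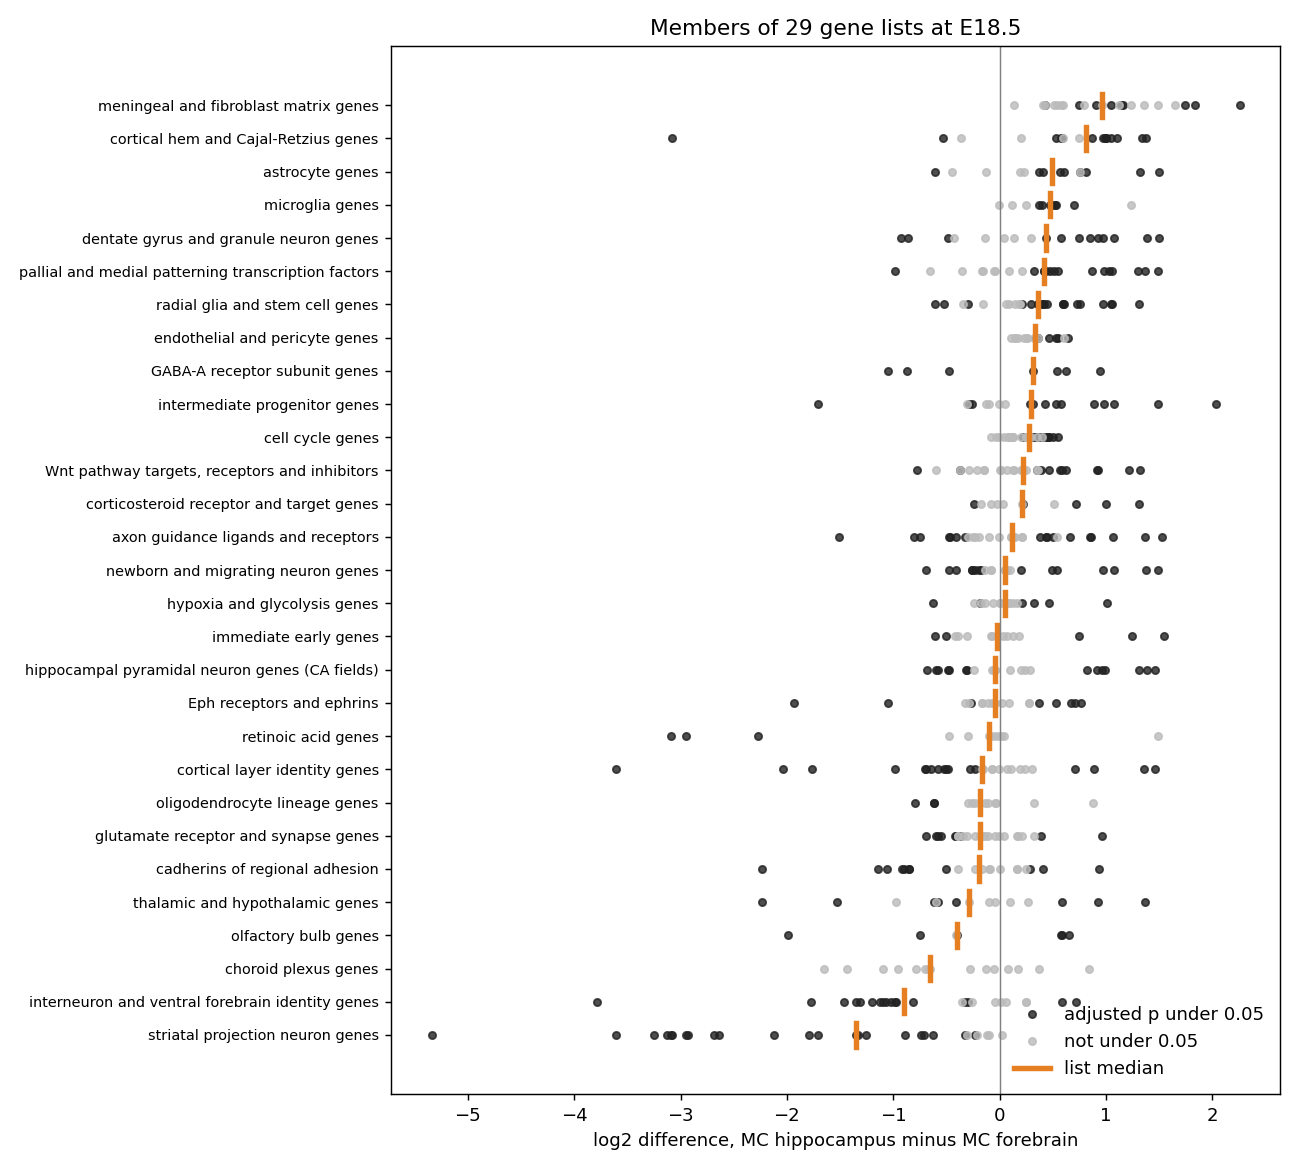
Log2 difference, MC hippocampus minus MC forebrain, of every tested member (points) of 29 gene lists, ordered by the list median (orange bars); black points had an adjusted p under 0.05 and grey points did not. Striatal projection neuron genes lie lowest, with a median of -1.35 and no member called higher, while the meningeal, cortical hem, astrocyte and microglia lists have the highest medians.

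Several markers of the dentate gyrus and hippocampus were higher in hippocampus. Prox1, the homeobox gene that specifies dentate granule neurons, had a scaled signal of 513, 357 and 274 on the 3 hippocampus arrays, against 126, 148 and 118 on the 3 forebrain arrays. The groups did not overlap and hippocampus replicate 1 was highest, for a difference of 1.50 ± 0.18 (2.83-fold; adjusted p = 1.5e-05). Zbtb20, a zinc finger repressor required for hippocampal pyramidal identity and present in dentate granule cells, had 6255, 4881 and 4711 in hippocampus, against 1813, 2365 and 1876 in forebrain. That was a rise of 1.39 ± 0.11 (2.61-fold; adjusted p = 2.1e-07). Neurod1, a proneural factor of granule neuron differentiation, had 5289, 3903 and 3815, against 1994, 2177 and 1916 (1.08 ± 0.12; 2.12-fold; adjusted p = 6.7e-06). The chemokine receptor gene Cxcr4, which guides granule cell precursors, rose by 0.98 ± 0.11 (adjusted p = 9.8e-06), and Lef1, the nuclear effector of Wnt signalling whose loss prevents dentate formation, rose by 0.92 ± 0.21 (adjusted p = 0.0030).

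Across the dentate gyrus and granule neuron list, 9 of 17 tested genes were higher (52.9%, against 15.3% of all genes) and 3 were lower (17.6%, against 15.4%), with a median of 0.44, against 0.01 over all genes. The lower members included genes of mature granule neurons. Calb1, the calcium-binding protein of adult granule cells, had 870.2, 657 and 1157 in hippocampus, against 1623, 1495 and 1622 in forebrain. C1ql3, a secreted synapse-organising protein, had 291, 469.7 and 318, against 752, 596 and 668. For both genes every hippocampus array lay under every forebrain array, and the falls were 0.86 ± 0.16 (adjusted p = 0.00077) and 0.93 ± 0.17 (adjusted p = 0.00053). The granule cell genes C1ql2 and Lct and the desmosomal gene Dsp stayed under the filter, and C1ql2 was between 7.56 and 36.1 on all 6 arrays. On the deposited values 4 members were higher and 2 lower, and among male arrays 4 were higher and 0 lower.

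**Figure D2:**
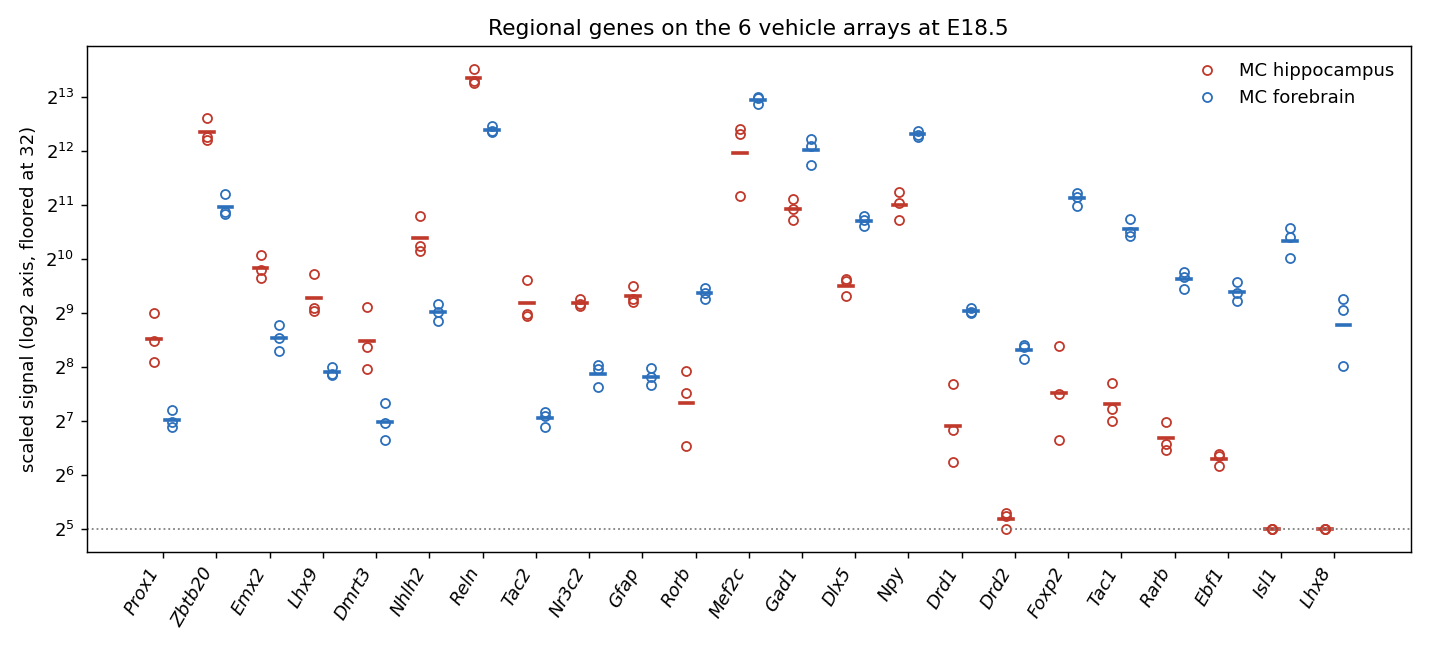
Scaled signal of 23 regional genes on each of the 3 MC hippocampus (red, left of each pair) and 3 MC forebrain arrays (blue, right), on a log2 axis with values under 32 drawn at 32 (dotted line); bars are means of the log2 values. Genes from Prox1 to Gfap are higher and those from Rorb to Lhx8 lower in hippocampus without overlap, and Isl1 and Lhx8 lie at or next to the floor on all 3 hippocampus arrays.

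Genes of the pyramidal fields split evenly, with 7 of 23 higher and 7 lower (30.4% each; median -0.04, -0.26 on the deposited values). The 7 higher genes included Crym, a thyroid hormone-binding protein, which had 7078, 5101 and 3949.5 in hippocampus, against 1788, 2218 and 1707 in forebrain (1.47 ± 0.19; 2.76-fold; adjusted p = 3.0e-05). Nr3c2, the mineralocorticoid receptor that hippocampal neurons carry at high density, had 613, 557 and 576, against 263, 249 and 197. The groups did not overlap, and the rise was 1.31 ± 0.14 (adjusted p = 5.1e-06). Nptx1, a neuronal pentraxin that gathers AMPA receptors, rose by 0.99 ± 0.18 (adjusted p = 0.00061), and the kainate receptor subunit gene Grik4, typical of CA3, rose by 0.96 ± 0.21 (adjusted p = 0.0019). Fibcd1, a marker of adult CA1, was low in both regions at 179.5, 143 and 163, against 105, 80.0 and 90.5 (0.82 ± 0.14; adjusted p = 0.00037). Wfs1, an endoplasmic reticulum protein that marks CA1 in the adult, went the other way with 295, 375 and 387, against 544, 436 and 482 (-0.47 ± 0.12; adjusted p = 0.0076), as did the phosphodiesterase gene Mpped1 (a fall of 0.68 ± 0.11; adjusted p = 0.00016) and Lmo3, a LIM-only transcription co-factor (a fall of 0.58 ± 0.10; adjusted p = 0.00036). The pyramidal neuron factor Neurod6 differed by 0.10 ± 0.08 (adjusted p = 0.37). Leaving out hippocampus replicate 1 moved the list median to 0.15, and 1 member was lower rather than 7 among male arrays.

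Genes of the hem and Cajal-Retzius list were largely higher in hippocampus. Reln, the extracellular glycoprotein that Cajal-Retzius cells secrete to position migrating neurons, had 11749, 9764 and 10112 on the hippocampus arrays, against 5202, 5627 and 5272 on the forebrain arrays. Every hippocampus array lay well above every forebrain array, and the rise was 0.97 ± 0.07 (1.96-fold; adjusted p = 1.2e-07). Nhlh2, a basic helix-loop-helix factor of early-born neurons, had 1773, 1132 and 1204, against 518, 574 and 464 (1.38 ± 0.16; adjusted p = 1.1e-05). Trp73, the p53 relative that Cajal-Retzius cells need to survive, had 533, 394 and 449, against 254, 214 and 216 (1.00 ± 0.14; adjusted p = 4.7e-05). The LIM homeobox gene Lhx1 and Ndnf, a secreted factor of marginal-zone neurons, rose by 0.99 ± 0.21 (adjusted p = 0.0015) and 0.87 ± 0.12 (adjusted p = 3.8e-05).

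Among the secreted signals, Wnt5a, a ligand that acts mainly outside the beta-catenin route, had 755, 585 and 502 in hippocampus, against 288, 318 and 275 in forebrain (1.05 ± 0.14; adjusted p = 3.3e-05). R-spondins, which amplify Wnt signals at the receptor, rose together. Rspo2 had 1604, 1409.5 and 1542, against 716, 783 and 631 (1.10 ± 0.13; adjusted p = 9.4e-06), and Rspo3 and Rspo1 rose by 1.00 ± 0.13 (adjusted p = 3.2e-05) and 1.34 ± 0.27 (adjusted p = 0.0012). Wnt8b, a marker of the medial wall, did not pass the filter but did not overlap either, with 139, 84.6 and 75.7, against 50.1, 36.7 and 47.9. Wnt7b, expressed by differentiating neurons, fell by 0.53 ± 0.11 (adjusted p = 0.0010). In all, 12 of 18 tested genes of the hem and Cajal-Retzius list were higher (66.7%) and 2 lower (11.1%), with a median of 0.81. Of the tested genes 4 had passed the filter through 1 region alone, and among the other 14 there were 9 higher and 1 lower. The lower members were Wnt7b and Ebf1, which is also a striatal gene. The count of higher genes fell to 7 without hippocampus replicate 1, and the count of lower genes was 3 without that array and 1 without any one of the forebrain arrays.

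Transcription factors that pattern the dorsal and medial cerebral wall were mostly higher in hippocampus. Emx2, a homeobox factor without which the hippocampus stays small, had 1074, 888 and 798 in hippocampus, against 369, 437 and 315 in forebrain (1.30 ± 0.13; 2.47-fold; adjusted p = 2.3e-06). Its antisense transcript Emx2os rose by 1.57 ± 0.20 (adjusted p = 1.8e-05). The LIM homeobox gene Lhx9 had 842, 527 and 547, against 235, 257 and 232 (1.37 ± 0.20; adjusted p = 9.0e-05). Dmrt3, a doublesex-related factor graded toward the medial wall, had 555, 248 and 329, against 125, 161 and 100.4 (1.49 ± 0.23; adjusted p = 0.00015), and its relative Dmrta2, which the hem and hippocampus require, rose by 1.03 ± 0.12 (adjusted p = 9.7e-06). For Emx2, Lhx9, Dmrt3 and Dmrta2, hippocampus replicate 1 was the highest array and the groups did not overlap. Smaller rises were measured for factors with broad pallial expression: Emx1 rose by 0.55 ± 0.10 (adjusted p = 0.00059), Lhx2 by 0.43 ± 0.09 (adjusted p = 0.0013), the nuclear factor I genes Nfix and Nfib by 0.51 ± 0.08 (adjusted p = 0.00011) and 0.33 ± 0.07 (adjusted p = 0.0026), and Tcf4 by 0.42 ± 0.06 (adjusted p = 8.9e-05). The Emx1 call was lost with the probe sets of a gene averaged (0.27, adjusted p = 0.078). On the deposited values Emx1, Lhx2, Nfix, Nfib and Tcf4 all lost their calls. Among male arrays Emx1, Lhx2 and Nfib were at 0.37, 0.24 and 0.24. The COUP-TF genes Nr2f1 and Nr2f2, which mark caudal and ventral cortex, differed by 0.21 ± 0.13 (adjusted p = 0.22) and -0.05 ± 0.21 (adjusted p = 0.89), and Pax6 by -0.15 ± 0.11 (adjusted p = 0.31). Of 23 patterning factors tested, 14 were higher (60.9%) and 1 was lower (4.35%), with a median of 0.42. The lower one, Sp8, lost its call without hippocampus replicate 1 or forebrain replicate 1. On the deposited values 6 were higher.

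Components and targets of Wnt signalling moved in part. Sp5, a zinc finger repressor induced directly by Wnt signals, had 179.7, 186 and 181 in hippocampus, against 92.1, 52.2 and 80.1 in forebrain (1.32 ± 0.29; 2.50-fold; adjusted p = 0.0025). It passed the filter through hippocampus alone. The receptor gene Fzd7 had 922, 667 and 715, against 277, 373 and 338 (1.22 ± 0.17; adjusted p = 4.6e-05), and the receptors Fzd1 and Fzd4 rose by 0.62 ± 0.10 (adjusted p = 0.00019) and 0.57 ± 0.13 (adjusted p = 0.0029). Axin2, the feedback inhibitor that is the usual readout of beta-catenin activity, rose by 0.37 ± 0.08 (adjusted p = 0.0031), and Ccnd1 by 0.35 ± 0.07 (adjusted p = 0.0019). Both lost their calls on the deposited values, at 0.16 and 0.14, and were at 0.23 and 0.26 among male arrays. Sfrp2, a secreted inhibitor of Wnt ligands, had 399, 506 and 375, against 677, 725 and 767, and fell by 0.77 ± 0.13 (adjusted p = 0.00023). The cytoplasmic transducer gene Dvl1 fell by 0.37 ± 0.06 (adjusted p = 0.00038), while beta-catenin itself (Ctnnb1) differed by 0.13 ± 0.06 (adjusted p = 0.083). Of 30 genes tested in the Wnt list, 11 were higher (36.7%) and 2 lower (6.67%), and the median was 0.22, or -0.04 on the deposited values, where 2 were higher and 1 lower.

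The Sp5 promoter is shown because it was the only promoter among 18 of the Wnt list found in RefSeq to hold the TCF/LEF core CTTTGAT, searched on both strands, which 3.73% of 32851 promoters of the same length held. The sequence, from RefSeq, is of build GRCm38.p6, plus strand, chr2:70474673-70474972, from 250 bases before the transcript start to 50 after it, with the core in capitals, 104 bases before the start.
Sp5: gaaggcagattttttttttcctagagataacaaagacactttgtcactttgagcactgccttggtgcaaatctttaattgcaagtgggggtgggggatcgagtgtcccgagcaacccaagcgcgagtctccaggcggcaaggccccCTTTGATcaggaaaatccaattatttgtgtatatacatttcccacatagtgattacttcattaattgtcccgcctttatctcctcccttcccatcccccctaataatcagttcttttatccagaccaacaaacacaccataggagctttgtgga
The match is a description of these letters, and no binding was measured.

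Radial glia and stem cell genes were higher in hippocampus in 17 of 27 cases (63%) and lower in 3 (11.1%), with a median of 0.36. Hopx, a homeodomain protein of outer radial glia and of dentate stem cells, had 3477, 3251 and 3669.6 in hippocampus, against 1259.7, 1465 and 1473 in forebrain (1.31 ± 0.12; 2.48-fold; adjusted p = 6.6e-07). Tnc, an extracellular matrix protein of the stem cell niche, had 4132, 3214 and 3738, against 1771, 2031 and 1810.2 (0.98 ± 0.08; adjusted p = 3.5e-07). The receptor genes Notch2 and Notch1 rose by 1.05 ± 0.10 (adjusted p = 1.1e-06) and 0.73 ± 0.10 (adjusted p = 3.0e-05), the intermediate filament genes Vim and Nes by 0.60 ± 0.08 (adjusted p = 1.9e-05) and 0.59 ± 0.10 (adjusted p = 0.00027), and Id3 by 1.06 ± 0.11 (adjusted p = 2.1e-06). With the probe sets of a gene averaged, Notch2 was at 0.54 (adjusted p = 0.081) and Nes at 0.34 (adjusted p = 0.051), and neither was called. Id4, an inhibitor of basic helix-loop-helix factors, and Aldh1l1, a folate enzyme used as an astrocyte marker, fell by 0.52 ± 0.11 (adjusted p = 0.0023) and 0.61 ± 0.08 (adjusted p = 4.6e-05). Sox9 and Sox3 differed by 0.09 ± 0.14 (adjusted p = 0.67) and 0.06 ± 0.16 (adjusted p = 0.82). Astrocyte genes overlap with this list. Gfap, the astrocyte filament also present in hippocampal stem cells, had 725, 611 and 588, against 224, 253 and 203 (1.50 ± 0.17; adjusted p = 6.7e-06). Gja1, the gap junction protein connexin 43, had 5844, 5996 and 5594, against 1693, 3184 and 2337 (1.32 ± 0.24; adjusted p = 0.00050). For both genes the groups did not overlap, and 8 of 14 astrocyte genes were higher (57.1%) and 1 lower (7.14%). Without hippocampus replicate 3 or forebrain replicate 2 the number lower was 2. On the deposited values 4 radial glia genes and 2 astrocyte genes were higher.

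The chain from progenitor to newborn excitatory neuron was higher in hippocampus at its start. Neurog2, the proneural factor of the dorsal telencephalon, had 1479, 1319 and 1126 in hippocampus, against 727, 827 and 573 in forebrain (0.89 ± 0.16; 1.85-fold; adjusted p = 0.00056). Eomes (Tbr2), which marks intermediate progenitors, had 1752, 1545 and 1399.8, against 1080.5, 1090.3 and 971 (0.58 ± 0.15; adjusted p = 0.0070). Insm1 and the AP-2 factor gene Tfap2c, both of basal progenitors, rose by 0.43 ± 0.10 (adjusted p = 0.0024) and 0.98 ± 0.17 (adjusted p = 0.00036), and Mfap4, a matrix-associated protein, rose by 2.04 ± 0.36 (adjusted p = 0.00038). Tbr1, which follows Eomes in the chain, fell by 0.69 ± 0.13 (adjusted p = 0.00087). Penk, the enkephalin precursor that striatal neurons express strongly and a member of the striatal list too, had the largest fall of the intermediate progenitor list, 1.70 ± 0.19 (adjusted p = 6.7e-06). That list had 10 of 18 genes higher (55.6%, against 15.3% of all genes) and 3 lower (16.7%, against 15.4%). The list of newborn and migrating neurons split, with 7 of 24 higher (29.2%) and 8 lower (33.3%). Its median was 0.05, -0.07 after quantile normalization and -0.16 on the deposited values. Without forebrain replicate 3 the lower count there was 5. Microtubule genes of all young neurons did not pass the test. Tubb3 differed by 0.06 ± 0.06 (adjusted p = 0.47) and Stmn2 by 0.07 ± 0.07 (adjusted p = 0.44). Cell cycle genes differed by small amounts and in 1 direction, with 15 of 35 higher (42.9%), 0 lower and a median of 0.27. Cenpf, a kinetochore protein, rose by 0.55 ± 0.09 (adjusted p = 0.00021) and the replication helicase gene Mcm5 by 0.50 ± 0.09 (adjusted p = 0.00030), while Pcna differed by -0.0016 ± 0.07 (adjusted p = 0.99). With the probe sets of a gene averaged Mcm5 was at 0.21 and not called (adjusted p = 0.064). On the deposited values no cell cycle gene was called, at a median of 0.07.

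Striatal projection neuron genes included the largest fall of the comparison, and every called member was lower in hippocampus. Of 27 tested members, 1 had a positive difference. Isl1, a LIM homeobox factor of direct-pathway striatal neurons, had a scaled signal of 3.75, 6.97 and 32.1 on the hippocampus arrays, against 1533, 1043 and 1362 on the forebrain arrays. The first 2 hippocampus arrays were under the floor of 32, so the fall of 5.34 (± 0.62; adjusted p = 8.9e-06) was measured against values set at or close to that floor. Foxp2, the forkhead factor of striatal and deep cortical neurons, had 101, 337 and 181, against 2399, 2034 and 2281, a fall of 3.61 ± 0.32 (adjusted p = 6.1e-07). Hippocampus replicate 2 was the highest of its group for Foxp2, Drd1 and Ppp1r1b and replicate 1 the lowest. Drd1, the dopamine receptor of the direct pathway, had 75.7, 205 and 113, against 511, 515 and 549 (-2.12 ± 0.23; adjusted p = 5.9e-06). Drd2, that of the indirect pathway, had 37.9, 25.2 and 39.3, against 339, 283 and 332 (-3.13 ± 0.17; adjusted p = 2.2e-09). Tac1, the substance P precursor, had 127, 150.1 and 207, against 1448, 1383 and 1704 (-3.25 ± 0.16; adjusted p = 1.0e-09). No hippocampus array of these genes reached the lowest forebrain array.

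Among the other regulators of striatal neurons, Ebf1 had 83.3, 81.8 and 71.8 in hippocampus, against 759.9, 594 and 658 in forebrain (-3.08 ± 0.15; adjusted p = 6.3e-10), and Zfp503 and Meis1 fell by 2.93 ± 0.28 (adjusted p = 1.1e-06) and 2.68 ± 0.24 (adjusted p = 6.6e-07). Among signalling proteins of the medium spiny neuron, Ppp1r1b (DARPP-32) fell by 1.79 ± 0.23 (adjusted p = 2.6e-05). The cyclic AMP-regulated phosphoprotein gene Arpp21 fell by 2.77 ± 0.25 (adjusted p = 7.9e-07) and the G protein subunit gene Gnal by 1.33 ± 0.16 (adjusted p = 1.2e-05). The forkhead gene Foxp1 fell by 0.74 ± 0.07 (adjusted p = 2.0e-06). The orphan receptor gene Gpr6 was under the floor on all 3 hippocampus arrays and was at least 6.23-fold lower there (adjusted p = 1.3e-08). Of the effectors of adult striatal neurons, Pde10a, Adcy5 and Rgs9 differed by -0.31 ± 0.17, -0.12 ± 0.11 and -0.21 ± 0.13 (adjusted p = 0.17, 0.44 and 0.23). Of 27 tested striatal genes, 22 were lower (81.5%, against 15.4% of all genes) and 0 higher, with a median of -1.35. Through forebrain alone 6 had passed the filter, and among the other 21 there were 16 lower, at a median of -0.89. Among male arrays 10 were lower.

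In the retinoic acid list, 2 receptor genes and 1 binding protein gene were lower in hippocampus. Rarb, the retinoic acid receptor that is itself a target of retinoic acid, had 88.5, 127 and 95.4 in hippocampus, against 864, 692 and 817 in forebrain (-2.95 ± 0.14, or 7.70-fold lower; adjusted p = 6.3e-10). Its partner Rxrg, a retinoid X receptor of striatal neurons, had 119, 83.0 and 82.9, against 779.7, 818 and 794, and fell by 3.09 ± 0.26 (adjusted p = 3.5e-07). Crabp1, a cytosolic retinoic acid-binding protein, had 174, 136 and 112, against 686, 611 and 715 (-2.27 ± 0.18; adjusted p = 1.7e-07). In each case the lowest forebrain array was more than 3 times the highest hippocampus array. The degrading enzyme gene Cyp26b1 differed by -0.48 ± 0.21 (adjusted p = 0.099) and Rxra by 0.01 ± 0.28 (adjusted p = 0.98). Aldh1a2, the synthesising enzyme made in meninges, had 156, 312 and 247, against 27.0, 202 and 84.8 (adjusted p = 0.12). Those 3 were the only genes called among 11 tested in the retinoic acid list, whose median was -0.10. Leaving out forebrain replicate 2 added 1 higher member.

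The Rarb promoter is shown because, of 10 tested retinoic acid genes with a RefSeq promoter, it was the only one to hold the direct repeat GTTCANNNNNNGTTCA, the core of a retinoic acid response element. Searched on both strands, that repeat was in 25 of 32851 promoters (0.0761%). The sequence, from RefSeq, runs 5′ to 3′ on the minus strand of chr14:16575427-16575726 (GRCm38.p6), with the repeat in capitals, starting 52 bases before the transcript start.
Rarb: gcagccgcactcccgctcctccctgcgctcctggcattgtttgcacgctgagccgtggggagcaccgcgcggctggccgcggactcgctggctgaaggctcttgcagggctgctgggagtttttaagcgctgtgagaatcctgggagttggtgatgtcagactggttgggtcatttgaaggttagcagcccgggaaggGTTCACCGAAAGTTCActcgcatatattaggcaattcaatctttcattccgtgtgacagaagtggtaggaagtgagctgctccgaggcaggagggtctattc
No retinoic acid level or receptor binding was measured in these arrays.

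Genes of inhibitory neurons and their ventral transcription factors were also mostly lower in hippocampus. Lhx8, a LIM homeobox gene of ventral cholinergic and GABA neurons, was under the floor on all 3 hippocampus arrays at 1.48, 0.781 and 3.17, against 534, 259.7 and 616 in forebrain. It was at least 13.8-fold lower in hippocampus (adjusted p = 0.00020). Dlx5, of the homeobox family that drives GABA neuron differentiation, had 768, 791 and 636, against 1784, 1558 and 1684 (-1.20 ± 0.15, or 2.30-fold lower; adjusted p = 2.2e-05), and Dlx2 and Dlx1 fell by 0.97 ± 0.16 (adjusted p = 0.00024) and 0.81 ± 0.13 (adjusted p = 0.00024). Gad1, the main GABA-synthesising enzyme, had 1938, 1689.5 and 2216, against 4764, 3404 and 4386 (-1.10 ± 0.17; adjusted p = 0.00014). The second enzyme gene Gad2 and the vesicular transporter gene Slc32a1 fell by 1.13 ± 0.23 (adjusted p = 0.0015) and 1.06 ± 0.18 (adjusted p = 0.00032). Of the peptides of cortical and hippocampal interneurons, Npy had 1683, 2407 and 2099.5, against 4888, 5274 and 5034 (-1.31 ± 0.13; adjusted p = 2.5e-06), and Sst had 1828, 1342 and 2520.2, against 3795, 3398 and 4007 (-1.02 ± 0.17; adjusted p = 0.00024). Of the genes of interneurons that migrate into cortex, Sox6 differed by 0.01 ± 0.08 (adjusted p = 0.92), Satb1 by 0.06 ± 0.08 (adjusted p = 0.59), and Maf by 0.25 ± 0.11 (adjusted p = 0.079). Lhx6, the medial ganglionic eminence factor, had 1539, 1360.2 and 1581, against 1890.0, 1793 and 1929.7, a fall of 0.33 ± 0.09 (adjusted p = 0.012) that was not called without hippocampus replicate 2. Lmo1, a LIM-only co-factor, was raised (0.72 ± 0.08; adjusted p = 1.1e-05). Of 24 genes tested, 15 were lower (62.5%) and 2 higher (8.33%), with a median of -0.89. Through forebrain alone 2 had passed the filter, and the other 22 had 13 lower and 2 higher at a median of -0.58. The count higher was 1 without hippocampus replicate 2.

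Many cortical layer genes were lower in hippocampus, 13 of 27 (48.1%), with 4 higher (14.8%) and a median of -0.16. Rorb, the orphan nuclear receptor of layer 4, had 93.2, 244 and 182 in hippocampus, against 661, 702 and 616 in forebrain (-2.04 ± 0.24, or 4.10-fold lower; adjusted p = 1.4e-05). Mef2c, an activity-dependent factor of superficial neurons, had 2312, 5438 and 5085, against 7453, 8043 and 8191 (-0.98 ± 0.22; adjusted p = 0.0031). Pou3f2 (Brn2), of upper-layer neurons, had 88.4, 469.6 and 213, against 680.2, 706 and 726 (-1.77 ± 0.39; adjusted p = 0.0026). In all 3 genes hippocampus replicate 1 was the lowest array by a clear margin, while the forebrain arrays lay close together. Cux1, an upper-layer homeobox gene, fell by 0.65 ± 0.06 (adjusted p = 6.6e-07), and Bcl11b (Ctip2), shared by subcerebral and striatal neurons, by 0.23 ± 0.06 (adjusted p = 0.0045). Deep-layer genes were called in both directions. Foxp2, Tbr1 and Bcl11b of this list were lower, whereas Fezf2, Lpl and Nr4a2 were higher. Fezf2, which specifies subcerebral neurons, had 2512, 2142 and 2027, against 1074, 1349 and 1192 (0.89 ± 0.09; adjusted p = 3.4e-06), and Lpl, a lipoprotein lipase of layer 5 and hippocampus, had 5248, 4177 and 3968, against 1534, 1972 and 1703 (1.36 ± 0.11; adjusted p = 2.9e-07). Nr4a2, the orphan receptor of the subplate and claustrum, rose by 0.71 ± 0.18 (adjusted p = 0.0055). Sox5 and Lmo4 differed by -0.07 ± 0.09 (adjusted p = 0.60) and -0.15 ± 0.07 (adjusted p = 0.13). Among male arrays 3 layer genes were lower and 3 higher.

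Some markers of diencephalon were lower in hippocampus too, and olfactory bulb genes went both ways. Otp, a homeobox gene of hypothalamic neurons, had 16.3, 49.3 and 116 in hippocampus, against 326, 192 and 305 in forebrain (-2.24 ± 0.36, or 4.71-fold lower; adjusted p = 0.00019). Fezf1 and the glutamate transporter gene Slc17a6, used by thalamic and hypothalamic neurons, fell by 1.53 ± 0.35 (adjusted p = 0.0030) and 0.57 ± 0.11 (adjusted p = 0.0011). The thalamic factor Gbx2 did not pass the filter but separated the groups, with 11.7, 6.36 and 8.33, against 80.5, 45.3 and 52.2. The hypothalamic peptides Oxt, Pomc and Hcrt differed by -0.04 ± 0.13, 0.27 ± 0.20 and 0.10 ± 0.28 (adjusted p = 0.84, 0.33 and 0.82). Of 15 genes tested, 5 were lower (33.3%) and 3 higher (20%), with 1 of the lower genes having passed the filter through forebrain alone. The higher genes were Lhx9, Lef1 and Calb2, which hippocampus also uses, and Calb2 lost its call without hippocampus replicate 1 or 2 or forebrain replicate 2. Cdhr1, a cadherin of olfactory bulb projection neurons, had 36.4, 42.3 and 55.8, against 343, 112 and 139 (-1.99 ± 0.32; adjusted p = 0.00019), with forebrain replicate 1 highest. Of 7 olfactory genes 3 were lower and 3 higher (42.9% each, against 15.4% and 15.3% of all genes). Through forebrain alone 2 had passed the filter, among them Cdhr1, and the other 5 had 3 higher and 1 lower at a median of 0.58. The lower count was 1, 1 and 0 without forebrain replicates 1, 2 and 3, where the filter also removed 2 genes.

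A neuropeptide and its receptor were among the strongest hippocampal genes. Tac2, the neurokinin B precursor, had 779, 508 and 494 in hippocampus, against 118, 143 and 137 in forebrain (2.13 ± 0.22; 4.39-fold; adjusted p = 2.7e-06). Tacr3, the receptor on which neurokinin B acts, had 1248, 661 and 821, against 235, 252 and 217 (1.91 ± 0.23; 3.75-fold; adjusted p = 1.6e-05). Replicate 1 was the highest hippocampus array for both, and each hippocampus array exceeded every forebrain array by more than 2-fold. Thrsp, a nuclear protein of lipogenic tissue induced by thyroid hormone, had 1291, 978 and 1079, against 272, 381 and 242 (1.92 ± 0.20; adjusted p = 3.4e-06). Fam163a, a small membrane protein, had 760.5, 420.1 and 491, against 139, 137 and 125 (2.01 ± 0.20; adjusted p = 1.5e-06). Mndal, an interferon-inducible protein of the p200 family, had 526, 417 and 418, against 112, 166 and 128 (1.76 ± 0.17; adjusted p = 2.0e-06). Whether its probe set also detects close relatives was not tested. The protease gene Pcsk5, the LIM protein gene Pdlim3 and the cytochrome gene Cyp1b1 rose by 1.51 ± 0.20 (adjusted p = 3.5e-05), 1.90 ± 0.20 (adjusted p = 3.8e-06) and 1.82 ± 0.34 (adjusted p = 0.00065). Among the corresponding falls were Pbx3, a homeobox co-factor, which had 569, 619 and 648, against 3809.8, 2705 and 3452 (-2.43 ± 0.15; adjusted p = 1.2e-08), the actin-binding protein gene Nexn (-2.65 ± 0.16; adjusted p = 1.2e-08) and the vesicle protein gene Nrsn2 (-2.45 ± 0.37; adjusted p = 9.7e-05).

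Corticosteroid genes other than Nr3c2 rose in part. Zbtb16, a zinc finger protein induced by glucocorticoids, had 548, 388 and 365 in hippocampus, against 224, 254 and 170.4 in forebrain (1.00 ± 0.17; adjusted p = 0.00033), and Cebpd rose by 0.72 ± 0.15 (adjusted p = 0.0019). The glucocorticoid receptor gene Nr3c1 differed by 0.21 ± 0.12 (adjusted p = 0.19), the target Sgk1 by -0.03 ± 0.09 (adjusted p = 0.84), and the co-chaperone gene Fkbp5 fell by 0.24 ± 0.06 (adjusted p = 0.0046). Of 11 genes tested, 4 were higher (36.4%) and 1 lower (9.09%), at a median of 0.21, or -0.09 on the deposited values. Of 14 immediate early genes, 3 were higher (21.4%) and 2 lower (14.3%; median -0.02), near the 15.3% and 15.4% of all genes. Nr4a3, an orphan nuclear receptor, was one of the largest rises, with 9213, 8114 and 7574, against 2506, 3364 and 2687 (1.55 ± 0.11; 2.92-fold; adjusted p = 4.8e-08), and the AP-1 gene Fosl2 rose by 1.25 ± 0.09 (adjusted p = 1.0e-07). Fos and Junb differed by -0.42 ± 0.18 (adjusted p = 0.091) and 0.19 ± 0.15 (adjusted p = 0.37), and Egr1 fell by 0.50 ± 0.11 (adjusted p = 0.0031). Hypoxia and glycolysis genes were near even, with 4 of 16 higher (25%) and 2 lower (12.5%; median 0.05, -0.12 on the deposited values), the largest rise being that of hexokinase 2, Hk2 (1.01 ± 0.14; adjusted p = 5.2e-05). The lower count there was 1 without hippocampus replicate 1 or forebrain replicate 3.

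Axon guidance genes were called in both directions, 10 of 30 higher (33.3%) and 7 lower (23.3%), at a median of 0.12 (-0.09 on the deposited values). Nrp1, the semaphorin and VEGF co-receptor, had 12498, 8737 and 9309.6 in hippocampus, against 3241, 4678 and 3916 in forebrain (1.37 ± 0.12; 2.58-fold; adjusted p = 6.2e-07). Its ligand Sema3c had 6303, 5544 and 5191, against 2538, 3075 and 2525 (1.07 ± 0.11; adjusted p = 3.8e-06), whereas Sema3a, the repulsive ligand of the same receptor, had 552, 702 and 810.4, against 1178, 1118 and 1278 and fell by 0.81 ± 0.12 (adjusted p = 7.9e-05). The netrin pathway divided in the same way. The receptor gene Dcc rose by 0.86 ± 0.08 (adjusted p = 4.4e-07) and its relative Neo1 by 0.51 ± 0.07 (adjusted p = 3.2e-05), while the ligand gene Ntn1 had 238, 185 and 245, against 725, 479 and 720.5 (-1.51 ± 0.25; adjusted p = 0.00024), and the repulsive receptor gene Unc5c fell by 0.75 ± 0.10 (adjusted p = 2.4e-05). The Neo1 call was lost with the probe sets of a gene averaged (0.21, adjusted p = 0.23), on the deposited values and among male arrays. Slit2 and Slit3, ligands of Robo receptors, rose by 0.66 ± 0.13 (adjusted p = 0.0011) and 1.53 ± 0.29 (adjusted p = 0.00073), and Nrp2 by 0.85 ± 0.16 (adjusted p = 0.00090). The Slit2 and Nrp2 calls were lost on the deposited values too.

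Of 19 Eph receptor and ephrin genes, 5 were higher (26.3%, against 15.3% of all genes) and 3 lower (15.8%, against 15.4%). Epha4 had 3977, 3505 and 2939.8 in hippocampus, against 2017, 2223 and 1864 in forebrain (0.76 ± 0.12; adjusted p = 0.00021), and Ephb3 and Epha6 rose by 0.71 ± 0.17 (adjusted p = 0.0041) and 0.67 ± 0.15 (adjusted p = 0.0021). Epha8 had 127, 92.8 and 111, against 265, 221 and 199 (-1.05 ± 0.15; adjusted p = 7.5e-05). Epha10 was under the floor on all 3 hippocampus arrays and at least 3.82-fold lower (adjusted p = 5.2e-06), while Epha7 and Ephb1 differed by -0.04 ± 0.15 (adjusted p = 0.86) and 0.02 ± 0.06 (adjusted p = 0.81). The higher count was 3 without hippocampus replicate 2 or 3 or forebrain replicate 1, the lower count was 1 without any forebrain array, and neither direction had a call on the deposited values. Of the 19 genes 2 had passed the filter through 1 region alone, among them Epha10, which was not tested once a forebrain array was left out. Cadherins leaned to forebrain, with 8 of 20 lower (40%) and 3 higher (15%). Pcdh11x, an X-linked protocadherin, had the largest fall, 2.23 ± 0.27 (adjusted p = 1.4e-05), and its 3 arrays of each region did not overlap. Pcdh10, Cdh13 and Cdh4 fell by 1.14 ± 0.10 (adjusted p = 4.3e-07), 1.06 ± 0.11 (adjusted p = 4.8e-06) and 0.85 ± 0.09 (adjusted p = 3.9e-06). Pcdh20 had 1904, 1422 and 1479, against 883, 797 and 820.0 (0.93 ± 0.12; adjusted p = 1.7e-05), and Cdh2, present on all neuroepithelial cells, differed by 0.0038 ± 0.05 (adjusted p = 0.96).

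All 7 GABA-A receptor subunit genes tested were called, 4 higher (57.1%, against 15.3% of all genes) and 3 lower (42.9%, against 15.4%). Gabra2 had 2279, 1809 and 2050.3 in hippocampus, against 1061, 1122 and 999.9 in forebrain (0.94 ± 0.12; 1.92-fold; adjusted p = 2.6e-05), and Gabrb1 and Gabra4 rose by 0.62 ± 0.10 (adjusted p = 0.00014) and 0.54 ± 0.11 (adjusted p = 0.0012). Gabra3 had 558, 660.4 and 719, against 1275, 1129.5 and 1129 (-0.87 ± 0.10, or 1.83-fold lower; adjusted p = 7.1e-06), and Gabrg1 and Gabrb2 fell by 1.05 ± 0.15 (adjusted p = 5.0e-05) and 0.47 ± 0.09 (adjusted p = 0.0012). The remaining gene, Gabra5, a subunit concentrated in adult hippocampus, rose by 0.31 ± 0.09 (adjusted p = 0.016) and lost its call without hippocampus replicate 1 or forebrain replicate 3. Without scaling, on the values as deposited, 1 subunit gene was higher and 3 were lower, and among male arrays 2 were higher and 2 lower. Glutamate receptor and synapse genes gave 2 higher (8%, against 15.3% of all genes) and 7 lower (28%, against 15.4%) among 25 (median -0.19). Among them the AMPA receptor gene Gria2 had 3212, 3388 and 3876, against 4685, 4716 and 4519 (-0.41 ± 0.07; adjusted p = 0.00038), Grm5 and Grm3 fell by 0.41 ± 0.10 (adjusted p = 0.0040) and 0.69 ± 0.16 (adjusted p = 0.0031), and Gria1 and Grin2b differed by 0.21 ± 0.08 (adjusted p = 0.062) and 0.17 ± 0.11 (adjusted p = 0.26). Without hippocampus replicate 2 the higher count was 4, and among male arrays the counts were 0 higher and 1 lower.

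Genes of other cell types varied with single arrays. Meningeal and fibroblast matrix genes had the highest median of the 29 cell type and pathway lists, 0.96, and all 23 tested members had a positive difference, 9 of them called (39.1%). Col1a1, the type I collagen chain of fibroblasts, had 379, 754 and 494 in hippocampus, against 24.9, 286 and 139.5 in forebrain (2.26 ± 0.83; 4.80-fold; adjusted p = 0.047). Forebrain replicate 1 was the lowest of the 6 arrays for 22 of the 23 genes, and hippocampus replicate 2 the highest for 22. The call count was 0 without forebrain replicate 1, at a median of 0.63. It was 7, 1 and 5 without hippocampus replicates 1, 2 and 3, and 15 and 3 without forebrain replicates 2 and 3. It was 3 with sex as a covariate and 0 among male arrays, at a median of 0.29. Col3a1, Dcn and the ferroxidase gene Cp, which the naming rule also picked, had 1.84 ± 0.63, 1.74 ± 0.55 and 1.63 ± 0.57 (adjusted p = 0.036, 0.024 and 0.038). Col3a1 and Cp lost their calls when any array other than forebrain replicate 2 was left out, Dcn when any array other than hippocampus replicate 3 or forebrain replicate 2 was, and all 3 did with sex as a covariate and among male arrays. Summed over the list, meningeal signal was between 16034 and 24496 in hippocampus, against 8120.4 and 15663 in forebrain.

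**Figure D3:**
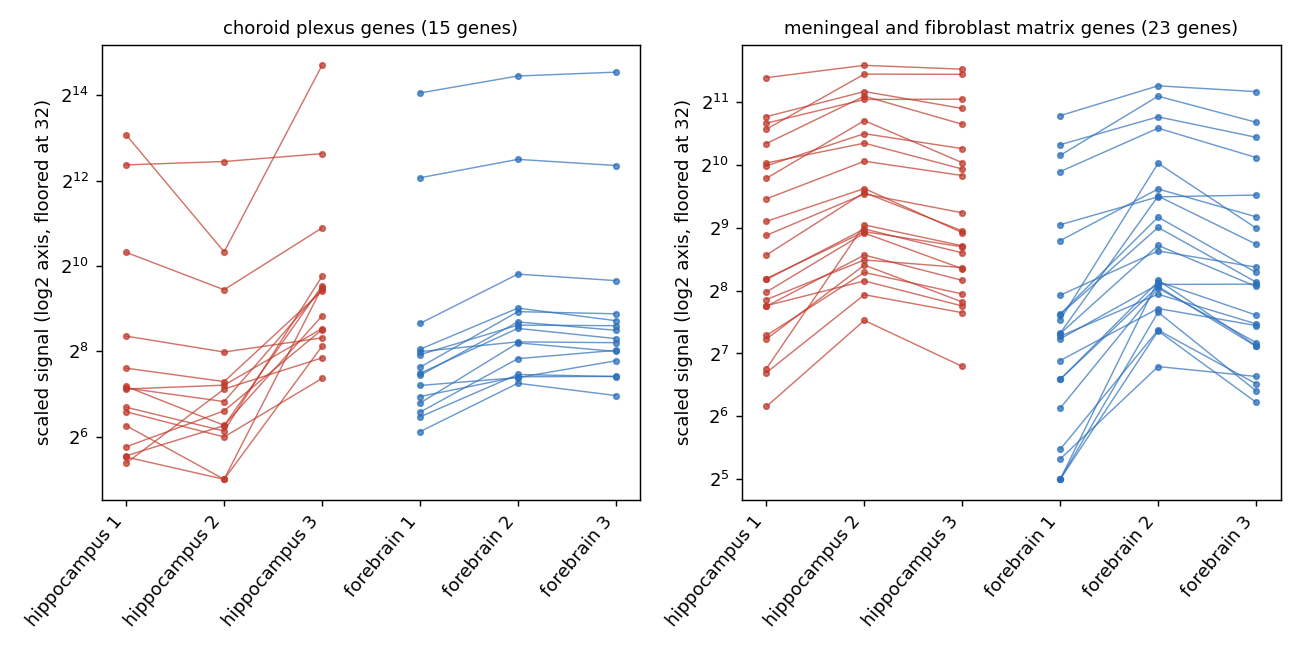
Scaled signal (log2 axis, floored at 32) of each tested choroid plexus gene (left, 15 genes) and meningeal gene (right, 23 genes) on the 3 MC hippocampus (red) and 3 MC forebrain arrays (blue); a line joins the arrays of 1 gene within a region and implies no order of the replicates. Of the choroid plexus genes 14 are highest on hippocampus replicate 3, and 22 meningeal genes are lowest on forebrain replicate 1.

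Choroid plexus genes ran the other way in their median (-0.65), but none of 15 was called. Folr1, the folate receptor of choroid epithelium, had 103, 70.1 and 865 in hippocampus, against 198, 487 and 471 in forebrain (adjusted p = 0.39), so that hippocampus replicate 3 exceeded and replicates 1 and 2 fell short of every forebrain array. Summed choroid signal ranged from 9064 to 41416 in hippocampus, against 23908 to 33729 in forebrain, and the defining gene Kl was under the floor on 2 hippocampus arrays and 1 forebrain array. Of 12 choroid genes tested on the deposited values 6 were lower, at a median of -0.79, in a fit that took each gene's spread from the general trend. Without hippocampus replicate 3, 4 choroid genes were lower at a median of -1.21, and without replicate 2 the median was 0.08 with 1 gene higher. With Ttr as a covariate the whole comparison called 3180 genes, against 3513 without it. Endothelial and pericyte genes had 6 of 16 higher (37.5%, against 15.3% of all genes) and 0 lower (against 15.4%). Cldn5, of tight junctions, rose by 0.55 ± 0.12 (adjusted p = 0.0018), and Pdgfrb, of pericytes, by 0.64 ± 0.12 (adjusted p = 0.00051). Microglial genes had 7 of 11 higher (63.6%, against 15.3% of all genes) and 0 lower, and Csf1r, the colony-stimulating factor receptor, rose by 0.53 ± 0.12 (adjusted p = 0.0023). The microglial count was 4 without hippocampus replicate 2 and 1 on the deposited values, the endothelial count was 0 on the deposited values, and both were 0 among male arrays. Oligodendrocyte lineage genes had 0 of 12 higher and 3 lower (25%, against 15.4% of all genes), 1 of which had passed the filter through forebrain alone. Among the lower genes Gpr17, a receptor of committed precursors, had 234, 213 and 209, against 382, 403 and 355 (-0.80 ± 0.15; adjusted p = 0.00082). The lower count of this list was 1 without any of the forebrain arrays. The 2 red cell genes tested, Alas2 and Hba-a2, differed by 0.04 ± 0.16 (adjusted p = 0.86) and 0.01 ± 0.17 (adjusted p = 0.96). The part of these tissues in the regional differences was not tested.

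The same regional comparison was made in embryos of the drug groups, on other arrays but with 1 estimate of the spread shared in the fit. Among VPA arrays 3385 of the same 11414 genes (29.7%) were called, and among VPM arrays 3372 (29.5%). Of the 3513 MC calls, 3365 (95.8%) had the same sign in VPA and 2188 were called there in the same direction, which is 62.3% of the MC calls and 64.6% of the VPA calls. In VPM 3411 (97.1%) had the same sign and 2293 were called in the same direction, 65.3% of the MC calls and 68.0% of the VPM calls. Calls in the opposite direction numbered 3 in each, and 1798 genes were called alike in all 3 treatments. Of the 295 genes with an MC difference of at least 2-fold, 256 were called the same way in VPA and 269 in VPM. Tests of whether the regional difference itself changed with treatment called 0 genes for VPA and 0 for VPM by limma, with 1055 (9.24%) and 856 (7.5%) at an unadjusted p under 0.05.

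Prox1 had 261, 345 and 244 in VPA hippocampus, against 93.8, 112 and 105 in VPA forebrain (1.44, adjusted p = 2.7e-05), and 237, 231 and 238 in VPM hippocampus, against 114, 114 and 132 in VPM forebrain (0.98, adjusted p = 0.00068). Rarb differed by -2.73 in VPA (adjusted p = 2.3e-09) and -2.91 in VPM (adjusted p = 5.2e-10), beside -2.95 in MC. Tac2 differed by 1.54 (adjusted p = 8.4e-05) and 1.50 (adjusted p = 8.1e-05), beside 2.13 in MC. Reln had 8016, 8509.8 and 8626 in VPA hippocampus, against 4833, 5439 and 5360.1 in VPA forebrain, and 8269.8, 8024 and 9128 in VPM hippocampus, against 5095, 4795 and 5518 in VPM forebrain. The groups did not overlap for Prox1 or Reln. One array stood apart in the ventral genes. VPA hippocampus replicate 1 had an Isl1 signal of 415, against 3.45 and 21.6 on the other VPA hippocampus arrays, and an Lhx8 signal of 273, against 1.49 and 5.62. All 3 VPM hippocampus arrays were under the floor for Isl1, at 24.5, 1.65 and 13.1, against 1194, 1359.8 and 1239.9 in VPM forebrain. No Isl1 difference is given for the drug groups, since its size would depend on the floor, and neither drug's change passed the test (adjusted p = 0.57 in VPA and 0.99 in VPM).

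Some neuronal genes called lower in MC hippocampus were not called in the drug groups, although the change itself did not pass the test. Pou3f2 differed by -0.68 in VPA (adjusted p = 0.20) and by -0.49 in VPM (adjusted p = 0.37), Mef2c by -0.47 (adjusted p = 0.12) and -0.32 (adjusted p = 0.30), and Tbr1 by -0.17 (adjusted p = 0.36) and -0.22 (adjusted p = 0.24). The tests of their change with treatment gave adjusted p-values between 0.44 and 0.67. Rorb was called in both, at -1.77 in VPA (adjusted p = 5.8e-05) and -1.96 in VPM (adjusted p = 1.8e-05). Over all 11414 genes 29.7% were called in VPA, 1727 higher in hippocampus and 1658 lower, and 29.5% in VPM, 1658 higher and 1714 lower. Of the 27 striatal genes 24 were called in VPA and 23 in VPM, all lower in hippocampus, and of the 35 cell cycle genes 25 and 20 were called, all higher. Choroid plexus signal differed again. Ttr had 20775, 21672 and 24547 in VPA hippocampus, against 1029, 237 and 4389 in VPA forebrain, and 693, 24363 and 5069 in VPM hippocampus, against 19311, 19263 and 22424 in VPM forebrain, and 11 of 15 choroid genes were called in VPA and 1 in VPM, all higher in hippocampus. Of 23 meningeal genes 13 were called in VPA and 21 in VPM, also all higher.

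**Figure D4:**
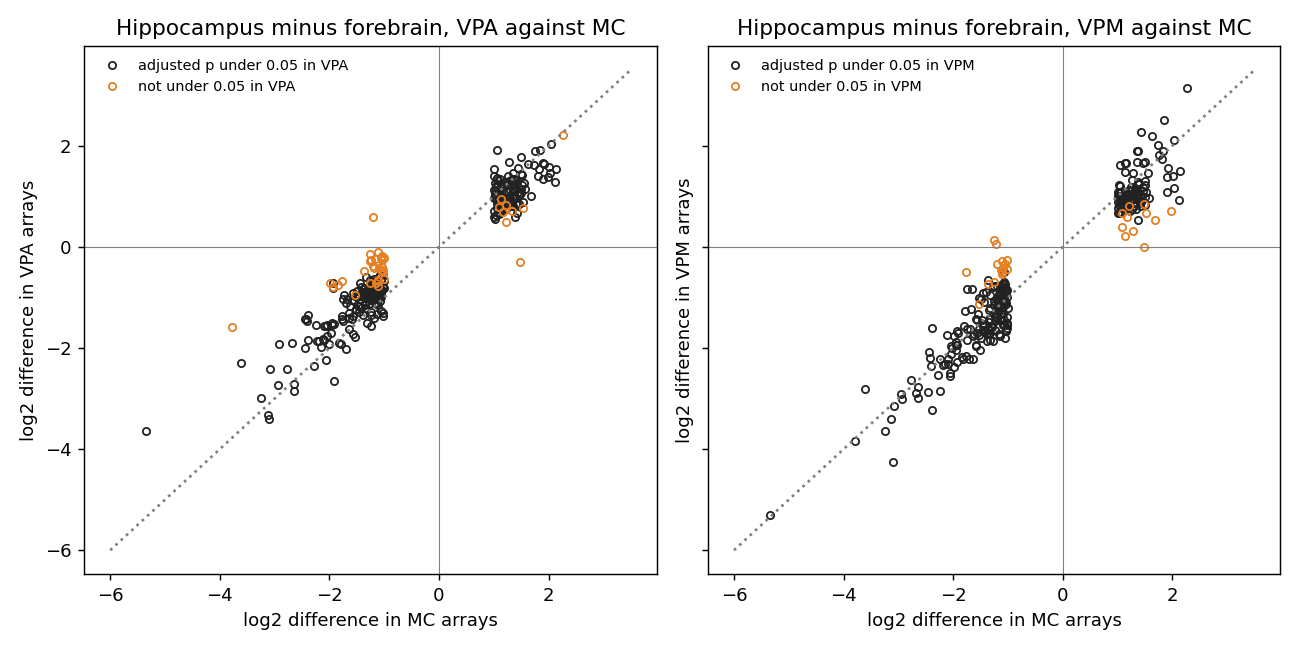
Log2 differences, hippocampus minus forebrain, of the 295 genes with an MC difference of at least 2-fold, in VPA arrays (left) and VPM arrays (right) against MC arrays; dotted lines mark equality, black points were called in the drug arrays and orange points were not. Of these genes 293 had the same sign in VPA and 292 in VPM; the genes were chosen on the MC values, which places them away from 0 on the horizontal axis.

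In adults the comparison available is hippocampus against cortex, so the ventral forebrain enters it only as far as the dissection did, and values are set side by side without a test of the change. Of 13288 genes tested there, 2583 (19.4%) were called, 1230 higher (9.26%) and 1353 lower (10.2%). Of the 3407 E18.5 calls that were tested in adults, 2171 (63.7%) had the same sign, 778 were called in the same direction (22.8% of the E18.5 calls and 30.1% of the adult calls) and 274 in the opposite one. Several hippocampal genes had larger differences by value in adults. Prox1 had 532, 427 and 479.5 in adult hippocampus, against 102, 95.2 and 102 in adult cortex, a difference of 2.26 (adjusted p = 1.5e-10), and Lhx9, Nr3c2 and Mndal differed by 2.49, 2.15 and 2.70 (adjusted p = 1.8e-09, 3.9e-15 and 1.1e-08). Fibcd1 differed by 3.38 in adults (adjusted p = 1.2e-14), beside 0.82 at E18.5, and C1ql2 and Dsp, under the filter before birth, were 4.50 and 4.00 in adults (adjusted p = 7.5e-09 and 2.9e-13). C1ql3 was lower in E18.5 hippocampus (-0.93) and higher in adult hippocampus (0.27, adjusted p = 0.0019).

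Other genes were higher in hippocampus at E18.5 and lower in adults. Tac2 had 208, 214 and 271 in adult hippocampus, against 579, 431 and 382 in adult cortex (adjusted p = 7.0e-05), without overlap, while its receptor gene Tacr3 stayed higher (0.55, adjusted p = 0.0082). Rspo1 had 70.8, 79.8 and 77.7 in adult hippocampus, against 276, 317 and 324 in adult cortex (adjusted p = 2.0e-07), and passed the adult filter through cortex alone. Emx1 differed by -0.73 in adults (adjusted p = 0.0012), beside 0.55 at E18.5. Reln differed by -0.19 in adults (adjusted p = 0.084), beside 0.97 at E18.5. Of the striatal genes, Rarb had 211, 226 and 199 in adult hippocampus, against 624, 766 and 705 in adult cortex, and Drd2 and Foxp2 differed by -2.68 and -2.81 (adjusted p = 2.8e-11 and 3.0e-09). Bcl11b, which was lower in E18.5 hippocampus, had 4279, 3496 and 4039 in adult hippocampus, against 2789.5, 2873 and 2374 in adult cortex, and was higher there without overlap (adjusted p = 0.00029). Isl1, a striatal gene, had 21.4, 8.95 and 8.87 on the adult hippocampus arrays, against 193, 185 and 139 on the adult cortex arrays. Of interneuron genes, Gad1 and Sst differed by -0.14 (adjusted p = 0.098) and 0.08 (adjusted p = 0.44) in adults, beside -1.10 and -1.02 at E18.5. Npy had 2170.5, 1816 and 2051 in adult hippocampus, against 3599, 3617 and 3142 in adult cortex, and was lower without overlap (adjusted p = 1.9e-07), as were Slc32a1 (-0.68, adjusted p = 0.00046) and Dlx5 (-0.76, adjusted p = 0.00063).

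**Figure D5:**
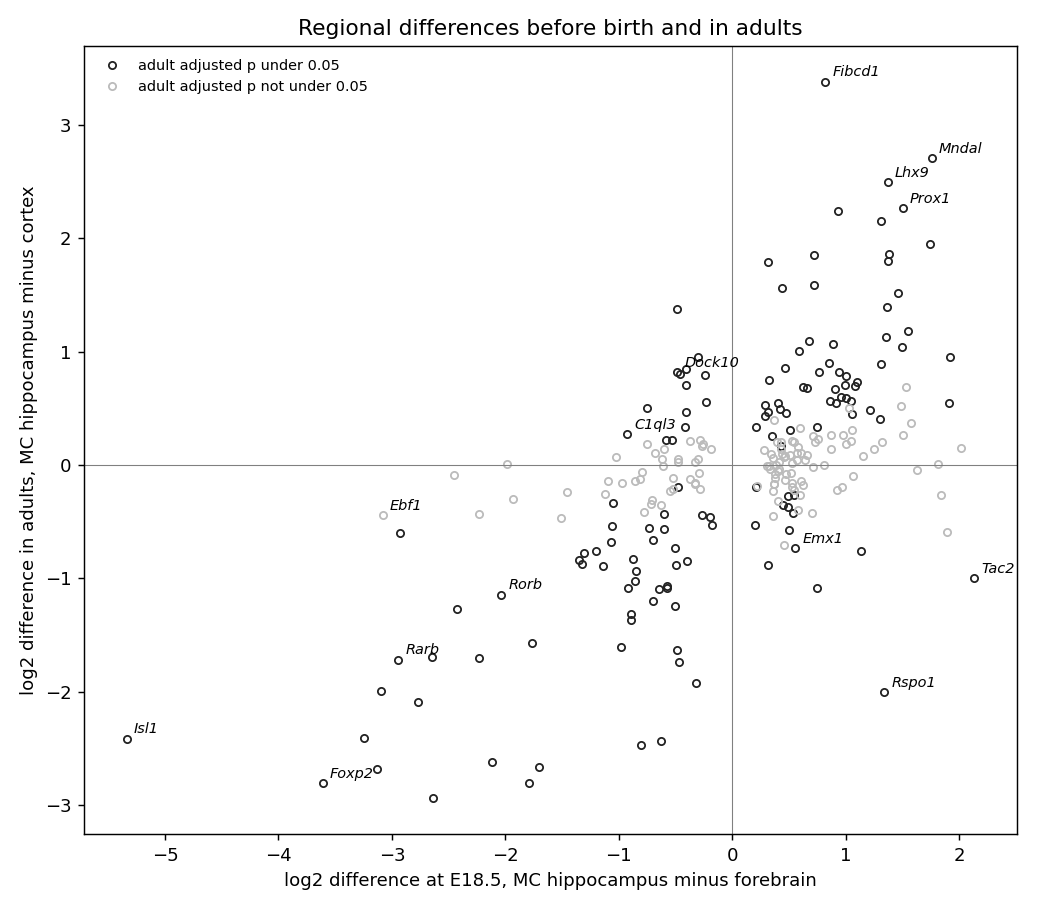
Log2 difference in adults (MC hippocampus minus MC cortex) against that at E18.5 (MC hippocampus minus MC forebrain) for the 251 listed or named genes called at E18.5 and tested at both ages; black points had an adult adjusted p under 0.05. Of these, 108 were called in the same direction in adults and 28 in the opposite one, among them Tac2, Rspo1 and Emx1 at the lower right.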

How the data were processed

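Total RNA was labelled by in vitro transcription and hybridised to 1 array per sample, per the labels' protocols. The authors deposited a linear signal intensity per probe set. GCOS is named in the submitters' processing notes, and for the signal algorithm and any scaling the sources used here give nothing. The deposited intensities were multiplied, array by array, to bring the 2% trimmed mean to 500, then floored at 32 and put on the log2 scale. Of 45101 probe sets, 34958 had 1 gene symbol, 932 several and 9211 none. The probe set with the highest mean over 59 arrays stood for each of 18194 genes, 9012 of which had several. Genes needed a scaled signal of 100 in at least 3 of the 6 MC arrays.

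The 18 embryonic arrays (6 groups) were fitted with limma 3.58.1 in R 4.3.3 (eBayes with an intensity trend, Benjamini-Hochberg adjustment, threshold 0.05), and the 24 adult arrays in a fit of their own over 13288 genes. Figures used Python 3.11.15 with matplotlib 3.10.9. A fold with all hippocampus arrays under the floor is given as a lower bound. Sequences are RefSeq's, and motifs were searched on both strands of 300 bases. Named genes were the 15 largest differences in each direction with no overlap, whose brighter region averaged 200 or more, plus members of gene lists. The members and lists were chosen with earlier results of these data known. The script was tested on simulated data. Alternatives covered scaling, floor, filter, trend, probe sets, samples, sex, replicate block and left-out arrays. Microarrays give no read depth, and the number of arrays limits the precision.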

Additional observations from a re-analysis of the deposited data

Results flagged for a closer look

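In 3 genes every VPM hippocampus array lay on the other side of the VPM forebrain arrays from where the MC arrays lay. None of them passed the test within a treatment, and the limma test of the change between treatments passed for none of them. Pax6, a transcription factor of cortical progenitors, differed by 0.21 in VPM and by -0.15 in MC (adjusted p of the change = 0.64). It had 417, 472 and 531 in VPM hippocampus, against 407, 407 and 404 in VPM forebrain. Rarg, a retinoic acid receptor, differed by 0.20 in VPM and by -0.30 in MC (adjusted p of the change = 0.61). It had 338, 301 and 313 in VPM hippocampus, against 279, 277 and 269.8 in VPM forebrain. Cadps2, a regulator of dense-core vesicle release, differed by -0.14 in VPM and by 0.24 in MC (adjusted p of the change = 0.62). It had 533, 498 and 488 in VPM hippocampus, against 538, 589 and 550.0 in VPM forebrain.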

How the results depend on the processing

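For MC hippocampus against MC forebrain the count of genes called was 3513 and lay between 2822 and 3526 with quantile normalization, another floor, filter or trend, averaged probe sets, only the 6 arrays compared, sex as a covariate or Ttr as a covariate. On the values as deposited it was 730, with 127 higher, against 603 lower, and the median of all genes was -0.20. Of 191 single genes followed there, 43 lost their call, 3 gained one and 0 reversed. Not all of these losses are marked beside the genes above. Without scaling the counts were 376 in VPA (173 higher and 203 lower), 721 in VPM (112 higher and 609 lower) and 1357 in adults (457 higher and 900 lower), and the tests of a change in the regional difference called 24 genes for VPA and 3 for VPM. On the deposited values limma's prior degrees of freedom at E18.5 were infinite, against 5.26 on scaled values, so a gene whose own arrays spread widely, such as Ttr, was tested against the general trend of the spread and not its own. With the male arrays alone, chosen together with the Ttr covariate after seeing the data, 494 genes were called. There forebrain was 1 array, so fewer samples entered. Not all calls lost on the male arrays are marked beside the genes above. Among the unmarked ones, Lef1, Grik4, Dmrt3, Fzd7, Gja1 and Mfap4 were at 0.85, 1.07, 1.14, 1.03, 0.87 and 1.39 on the male arrays.

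Leaving out 1 array at a time gave between 2485 and 3269 calls in MC, 2349 and 3119 in VPA, 2689 and 2962 in VPM, and 2188 and 2371 in adults. For the change with treatment it gave 0 to 1 for VPA and 0 to 1 for VPM, the 1 gene appearing without MC hippocampus replicate 2. With the replicate number as a block the counts were 3474 in MC, 3356 in VPA, 3357 in VPM and 2507 in adults. Same-numbered MC arrays correlated at 0.22, 0.07 and 0.08 in their deviations from the group means, and replicates 1 and 3 differ in sex between the regions, so the numbers do not pair embryos. The block moved the count of meningeal genes called to 19, against 9.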

Other observations

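Further members of the lists separated the regions. The glutamate transporter gene Slc1a2, with which astrocytes clear transmitter, had 2363, 1609.8 and 2117 on the hippocampus arrays, against 1256, 1142 and 1042 on the forebrain arrays (0.81 ± 0.11; adjusted p = 3.6e-05). Slc1a3, the transporter that radial glia share, had 3812, 3197 and 3688 in hippocampus, against 2222, 2295 and 1824 in forebrain (0.76 ± 0.10; adjusted p = 2.0e-05). Clu, the apolipoprotein clusterin, differed by 0.61 ± 0.13 (adjusted p = 0.0015). Nhlh1, a basic helix-loop-helix factor of newly born neurons and the close relative of Nhlh2, had 289, 164 and 177 in hippocampus, against 47.5, 108 and 73.2 in forebrain (1.49 ± 0.34; adjusted p = 0.0032), without overlap. Dkk3, a secreted protein of the Dickkopf family that marks hippocampal pyramidal neurons, had 1177, 1299.9 and 1357, against 652, 688 and 689 (0.92 ± 0.12; adjusted p = 2.4e-05). Zic5, a zinc finger factor of the dorsal midline, differed by 0.87 ± 0.23 (adjusted p = 0.0086).

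On the forebrain side, Gsx2, the homeobox gene that specifies lateral ganglionic eminence progenitors, had 34.1, 49.7 and 59.8 in hippocampus, against 172, 138 and 172 in forebrain (-1.78 ± 0.27; adjusted p = 0.00013). Six3, a homeobox gene of the anterior forebrain and striatal precursors, had 153, 70.9 and 132, against 268, 275 and 323 (-1.35 ± 0.27; adjusted p = 0.0011). Ikzf1, the zinc finger factor Ikaros present in enkephalin-positive striatal neurons, and Meis2, a homeobox gene of the lateral eminence, differed by -1.26 ± 0.29 (adjusted p = 0.0033) and -0.89 ± 0.13 (adjusted p = 6.4e-05). Every hippocampus array of these 4 genes lay under every forebrain array. The classic cadherin gene Cdh22 had 153, 168 and 186, against 323, 281 and 338 (-0.89 ± 0.16; adjusted p = 0.00053), and the protocadherin gene Pcdh7 differed by -0.85 ± 0.15 (adjusted p = 0.00031). Nrgn (neurogranin), a calmodulin-binding protein of maturing forebrain neurons, had 801, 875 and 1246, against 1387, 1497 and 1318 (-0.55 ± 0.14; adjusted p = 0.0063).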
